A study of Mus musculus with 9 samples.

Results

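The genes described here are 33 mouse genes of the antioxidant defence, namely the transcription factor NRF2 (Nfe2l2), its inhibitor KEAP1, established NRF2 targets, and the enzymes of the glutathione, thioredoxin, peroxiredoxin, superoxide dismutase and catalase systems. They were taken by symbol from a table of 53801 genes, in which each matched 1 row, and all 33 passed the filter on low counts. RNA-seq was measured in 9 libraries of a cultured mouse spermatogonial stem cell (SSC) line, 3 libraries per group. By the study's methods the cells carried Prmt5 flox/flox with Rosa26-CreERT2, a ubiquitous 4-hydroxytamoxifen-inducible Cre, and 1 µM 4OHT was given in culture to delete Prmt5, which encodes an arginine methyltransferase. The 3 groups are labelled 4OHT, MU and OE. The labels MU and OE were read from the study's methods as cells given 4OHT and a lentiviral construct, either catalytically dead PRMT5 (E444Q), called E444Q PRMT5 below, or PRMT5 (WT), called WT PRMT5. Neither the labels nor the methods name an empty vector for the group with 4OHT alone, so the construct and its delivery cannot be told apart in a comparison with it. No group without 4OHT was analysed here. The labels do not say whether the 3 libraries of a group came from separate cultures, so p-values measure the spread between these libraries, which may be technical.

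NRF2 is held in the cytoplasm and targeted for degradation by KEAP1, whose cysteines react with oxidants and electrophiles. NRF2 that escapes enters the nucleus, pairs with a small MAF protein and binds antioxidant response elements beside genes for glutathione synthesis, thioredoxin recycling, NADPH supply and haem breakdown. NRF2 activity is set mainly at the protein, which RNA-seq does not measure. Male germ cells have to limit oxidative damage to the DNA they pass on, and SSC cultures are kept in media with added reducing agents. The medium described in the study's methods held β-mercaptoethanol and ascorbic acid.

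Promoter sequence was looked up because many of these genes are known NRF2 targets. Promoters from RefSeq (GRCm38.p6, 250 bases before to 50 bases after a start) were matched for 27 of the 33 genes, 33 promoters in all. Hmox1, Gclc, Gsr, Prdx6, Sod3 and Gsta4 had no match. The core of the antioxidant response element, TGACNNNGC, was searched on both strands. It occurred in 7 of the 27 genes (25.9%), against 3781 of 27025 genes (14.0%) with a promoter of this length in the whole set. Per promoter the shares were 21.2% and 12.4%. Windows of 6 of these genes are shown because they are the stretches that tie these genes to the element by their letters, with the motif in capitals. Each reads 5′ to 3′ along the gene, and a motif on the opposite strand reads GCNNNGTCA. The Prdx1 motif contains the AP-1 site TGACTCA in the same letters. A match is a description of the letters and not a binding site. Keap1, Nqo1, Slc7a11, Gstp1 and all listed glutathione peroxidases had no match in the searched stretch, which leaves out any element farther from the start.
Nfe2l2 (chr2:75704875-75704913, minus strand): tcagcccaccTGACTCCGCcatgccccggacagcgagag
Srxn1 (chr2:152105542-152105570, plus strand): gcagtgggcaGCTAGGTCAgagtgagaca
Gclm (chr3:122245403-122245451, plus strand): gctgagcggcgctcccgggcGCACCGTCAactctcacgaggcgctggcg
Txnrd1, 1 of its 3 promoters (chr10:82859094-82859142, plus strand): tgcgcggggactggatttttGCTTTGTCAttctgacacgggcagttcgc
Prdx1 (chr4:116685446-116685494, plus strand): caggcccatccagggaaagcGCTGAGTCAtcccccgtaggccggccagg
Sod1 (chr16:90220686-90220734, plus strand): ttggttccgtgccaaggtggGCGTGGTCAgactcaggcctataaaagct
The carriers of the motif moved in both directions. Against 4OHT alone, Nfe2l2, Srxn1 and Txnrd1 were lower and Gclm, Prdx1 and Sod1 were higher in each comparison described below.

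Library totals ran from 78751996 to 154557863 counts with 4OHT alone or WT PRMT5 and from 192033300 to 365719548 with E444Q PRMT5. Levels are given in CPM (counts scaled to the library size) after TMM normalisation. The targeted gene, Prmt5, stood at 30.3 ± 1.92 CPM with 4OHT alone (mean ± SD, n = 3 here and for every mean below). It stood at 146 ± 0.957 with E444Q PRMT5 and at 1076 ± 7.61 with WT PRMT5, so the constructs were not at matched levels of RNA. For the protein, the study reports from western blots that either construct restored PRMT5. Germ cell markers were present, with Ddx4 at 298, 551 and 590 CPM and Dazl at 381, 687 and 791 in the same order of groups. The markers did not move together, since 8 of 14 were higher and 5 lower against 4OHT alone in each comparison. Among the lower ones Etv5 went from 126 to 13.8 and 12.1 CPM, Gfra1 from 120 to 27.5 and 28.2 and Zbtb16 from 291 to 183 and 199.7, all 3 named after their values were seen, as is Apoe below. The summed level of the 14 was 2386 to 2397, 3401 to 3495 and 3650.2 to 3728 CPM. Markers of other cells were present too and moved with the groups. By the study's methods SSCs were plated on feeder cells for growth curves and on mouse embryonic fibroblast feeders for the screen. Whether feeders were in these libraries is not stated. The 12 fibroblast markers summed to 5765 to 6783 CPM with 4OHT alone, 3922 to 3964 with E444Q PRMT5 and 3005 to 3072 with WT PRMT5. The 16 macrophage markers summed to 231 to 253, 1160 to 1194 and 2258 to 2385 CPM, of which Lyz2 made up the most, at 151, 944 and 1878 CPM, while the pan-leukocyte marker Ptprc stood at 0.696, 11.6 and 22.4. Of these 16 markers 11 were higher in each comparison, and 5 were lower with E444Q PRMT5 and 4 with WT PRMT5. Apoe went from 51.7 to 11.1 and 9.83 CPM, and C1qa, C1qb and C1qc, under 3 CPM in every group, were lower in both comparisons. The 6 Sertoli cell markers summed to at most 25.2 CPM, with Amh and Gata1 near 0. In such bulk RNA, fewer cells of a type and less RNA per cell cannot be told apart. Against 4OHT alone 11 of 12 fibroblast markers were lower and 1 higher with E444Q PRMT5 (median log2 fold change −0.76) and 12 of 12 lower with WT PRMT5 (median −1.10). The part of these cells in the results below was not tested. Transcripts of the mitochondrial genome took 1.31 to 1.89% of counts with 4OHT alone and 2.75 to 3.07% with either construct.

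The first 2 comparisons ask what changed in cells given 4OHT when a PRMT5 construct was added. Haem oxygenase 1, the cystine transporter, NQO1 and GSTP1 were 2.89-fold to 3.62-fold lower with either construct than with 4OHT alone. All 5 listed glutathione peroxidases were lower too. Peroxiredoxins 1, 4 and 5, glutathione reductase, Gclm, Sod1 and catalase were higher. With E444Q PRMT5, 21 of the 33 genes were lower (63.6%), 8 were higher (24.2%) and 4 did not pass the test, at an adjusted p of 0.05 in edgeR's quasi-likelihood test over 22452 genes. Of all genes tested in that comparison 26.5% were lower and 29.5% higher, 56% in either direction. With WT PRMT5, 21 were lower (63.6%), 9 higher (27.3%) and 3 did not pass, against 27.9% lower and 29.9% higher, 57.8% in either direction, of all genes. The share that was lower therefore stood above the background in each comparison, and the share that was higher near it. This background holds genes of every level that passed the filter and was not matched to the levels of the 33 genes. The part of level in these shares was not tested, here or where shares of all genes are given below. The median log2 fold change of the 33 genes was −0.45 with E444Q PRMT5, beside 0.043 over all genes, and −0.44 with WT PRMT5, beside 0.018. The libraries of the groups did not overlap for 30 of 33 genes with E444Q PRMT5, 9 above and 21 below, against 63.9% of all genes. With WT PRMT5 they did not overlap for 29, 9 above and 20 below, against 61.6%. Both comparisons use the same 3 libraries of 4OHT alone, so they are not independent of each other.

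**Figure D1:**
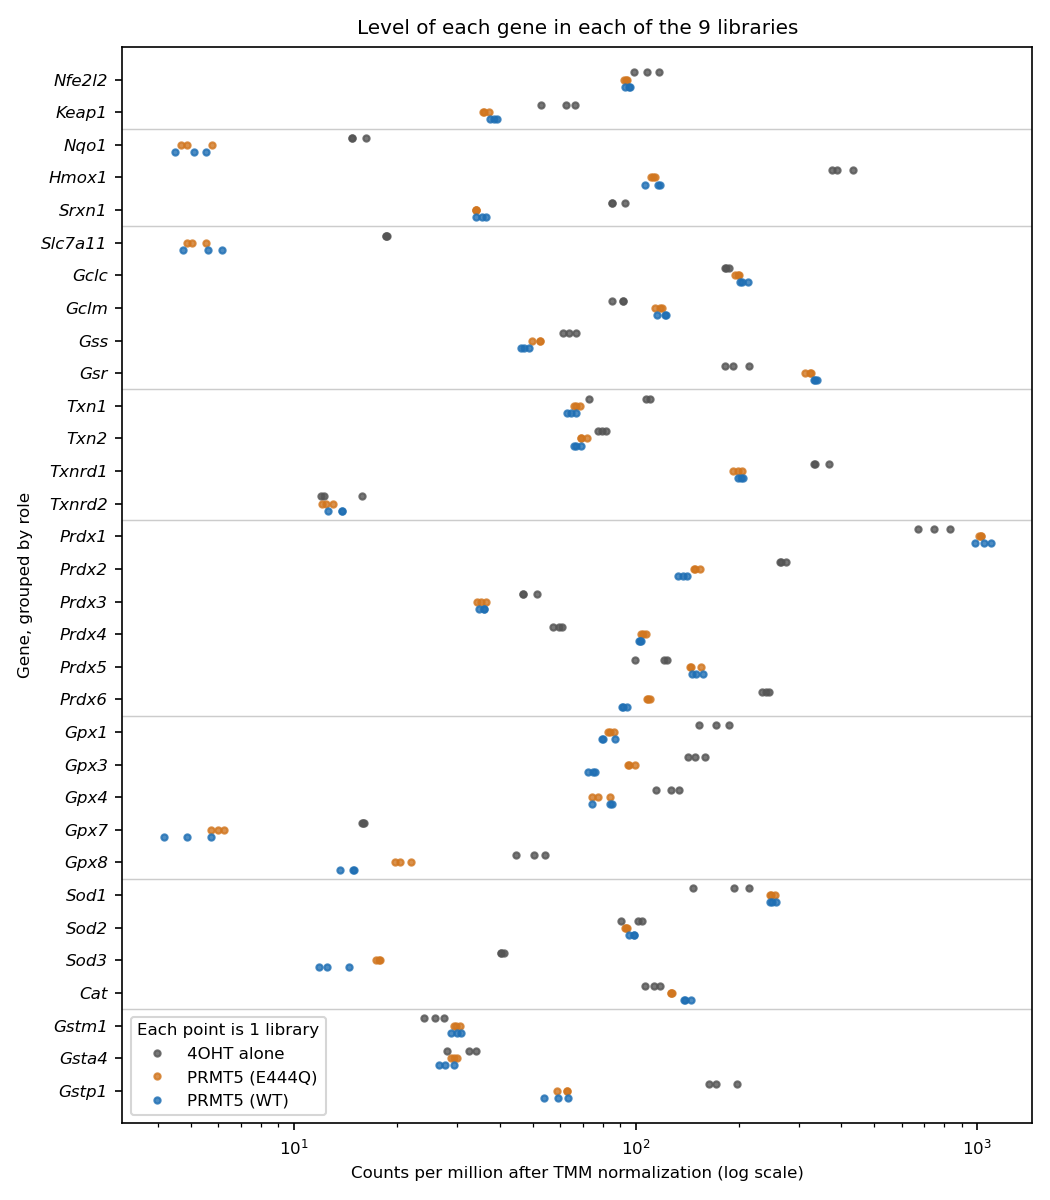
CPM after TMM normalisation (log axis) of 32 of the 33 genes, 1 point per library, with 4OHT alone in grey, E444Q PRMT5 in orange and WT PRMT5 in blue, and genes grouped by role. The grey points lie far to the right of the others for Hmox1, Slc7a11, Gstp1, Gpx8 and Sod3, and to the left for Gsr, Prdx1 and Prdx4.

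The pair of regulators was lower. Nfe2l2 RNA stood at 108, 99 and 117 CPM with 4OHT alone, 93.6, 92.7 and 94.2 with E444Q PRMT5 and 95.5, 93.0 and 96.1 with WT PRMT5. The decrease was small, at a log2 fold change of −0.21 ± 0.057 (SE, edgeR adjusted p = 0.00641) and −0.19 ± 0.057 (adjusted p = 0.0122), and the second of these did not pass the test without the second WT PRMT5 library (adjusted p = 0.0554). With library totals alone in place of TMM factors, neither passed. Keap1, the adaptor that hands NRF2 to a ubiquitin ligase, moved further, from 52.8, 66.6 and 62.4 CPM to 36.0, 37.2 and 35.6 with E444Q PRMT5 and 38.6, 39.4 and 37.5 with WT PRMT5. Its log2 fold changes were −0.74 ± 0.074 (adjusted p = 1.07e-06) and −0.66 ± 0.074 (adjusted p = 3.53e-06). For either gene the libraries with 4OHT alone stood above all others, while the constructs overlapped for Nfe2l2.

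Among the inducible enzymes, Hmox1 (chr8:75093621-75100589, GRCm38 as for all positions), which cleaves haem to biliverdin, iron and carbon monoxide, had the highest level per kilobase of annotated exon with 4OHT alone, at 228 CPM per kb, after Prdx1 at 246, a ranking that depends on the annotated lengths. It stood at 377, 389.5 and 434 CPM with 4OHT alone, at 111, 112 and 114 with E444Q PRMT5 and at 107, 117 and 118 with WT PRMT5. It was thus 3.56-fold and 3.52-fold lower with the constructs, log2 fold changes of −1.83 ± 0.060 (adjusted p = 2.06e-11) and −1.81 ± 0.060 (adjusted p = 1.55e-11). Nqo1 (chr8:107388225-107403206), a quinone reductase and a standard readout of NRF2 activity, stood at 16.2, 14.8 and 14.8 CPM with 4OHT alone. It fell to 5.75, 4.67 and 4.85 with E444Q PRMT5 and to 5.54, 5.11 and 4.48 with WT PRMT5, which is 3.00-fold (adjusted p = 4.05e-08) and 3.04-fold lower (adjusted p = 3.73e-08). Srxn1 (chr2:152105516-152111376), sulfiredoxin, which repairs overoxidised peroxiredoxins, ranged from 85.0 to 93.4 CPM with 4OHT alone and from 34.1 to 36.5 in the other 6 libraries, with log2 fold changes of −1.37 ± 0.055 (adjusted p = 1.29e-10) and −1.31 ± 0.055 (adjusted p = 1.47e-10). For these 3 genes the lowest library with 4OHT alone stood more than 2-fold above the highest of the others.

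The genes of glutathione supply split. Slc7a11 (chr3:49892526-50443614) encodes the transport subunit of the cystine/glutamate exchanger, which brings in the cysteine precursor for glutathione. It stood at 18.7, 18.6 and 18.6 CPM with 4OHT alone, at 4.86, 5.54 and 5.04 with E444Q PRMT5 and at 5.60, 4.73 and 6.17 with WT PRMT5, which is 3.62-fold (adjusted p = 4.28e-09) and 3.38-fold lower (adjusted p = 7.01e-09). Its annotated exons align over up to 373 bases with the tubulin genes Tuba1a, Tuba1b and Tuba1c, at best identities of 95.4 to 96.2%. Tuba1a was itself lower, with means of 457, 213 and 184 CPM. How reads with several alignments were counted is not stated, so the Slc7a11 values are uncertain. The 2 subunits of glutamate-cysteine ligase, the rate-limiting enzyme of glutathione synthesis, were not lower. The catalytic subunit Gclc stood at 184, 182 and 188 CPM with 4OHT alone, 195, 200.3 and 199.5 with E444Q PRMT5 and 214, 205 and 202 with WT PRMT5. Its log2 fold change of 0.10 ± 0.043 with E444Q PRMT5 did not pass the test (adjusted p = 0.06), and that of 0.16 ± 0.043 with WT PRMT5 did (adjusted p = 0.00522). The modifier subunit Gclm rose from 91.9, 92.0 and 85.3 CPM to between 114 and 123 in the other libraries, with log2 fold changes of 0.39 ± 0.050 (adjusted p = 1.34e-05) and 0.42 ± 0.050 (adjusted p = 5.69e-06). It shares 287 bases with Ppia, which moved the other way. Gss, glutathione synthetase, was lower, from 61.2, 63.9 and 67.1 CPM to 52.6, 49.8 and 52.5 with E444Q PRMT5 and 48.8, 46.3 and 47.0 with WT PRMT5. Its log2 fold changes were −0.31 ± 0.053 (adjusted p = 0.000187) and −0.44 ± 0.054 (adjusted p = 8.39e-06), and its exons overlap Acss2, which was higher. Gsr (chr8:33652523-33698163), the reductase that returns oxidised glutathione to its reduced form, rose the most of the 5. It stood at 193, 182 and 214 CPM with 4OHT alone, 325, 313 and 325 with E444Q PRMT5 and 339, 333 and 335 with WT PRMT5, a 1.63-fold (adjusted p = 1.03e-07) and 1.71-fold increase (adjusted p = 3.76e-08).

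The thioredoxin system was lower apart from its mitochondrial reductase. Txnrd1 (chr10:82833951-82897712), the cytosolic thioredoxin reductase, stood at 333, 334 and 369 CPM with 4OHT alone, 192, 199 and 205 with E444Q PRMT5 and 204, 199 and 206 with WT PRMT5. The log2 fold changes were −0.80 ± 0.051 (adjusted p = 1.3e-08) and −0.77 ± 0.051 (adjusted p = 1.6e-08). Txn1, cytosolic thioredoxin, stood at 110.4, 107 and 73.1 CPM with 4OHT alone, so that the third library lay close to the 62.9 to 68.8 of the other 6. This was the largest coefficient of variation among the 33 genes in that group (21.3%, median 6.70%), and the log2 fold changes were −0.53 ± 0.112 (adjusted p = 0.00114) and −0.58 ± 0.113 (adjusted p = 0.00055). The same library was the lowest of its group for other genes as well, among them Prdx1, Prdx5, Gpx1, Sod1 and Gsta4. Txn2, the mitochondrial thioredoxin, ran from 77.4 to 81.7 CPM with 4OHT alone, 69.1 to 71.9 with E444Q PRMT5 and 65.8 to 69.3 with WT PRMT5 (adjusted p = 0.00401 and 0.000561), and with library totals alone the first of these did not pass. Txnrd2, the mitochondrial reductase, passed in neither comparison (log2 fold changes −0.10 and 0.0043, adjusted p = 0.471 and 0.976). Its 4OHT libraries stood at 12.2, 12 and 15.8 CPM and the other 6 between 12.1 and 13.8.

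The peroxiredoxins, thiol peroxidases that remove hydrogen peroxide, divided evenly, 3 higher and 3 lower in each comparison. Prdx1 (chr4:116685544-116700822), a cytosolic member with the highest level per kilobase of annotated exon of the 33 genes in every group, stood at 831, 746 and 671 CPM with 4OHT alone. It rose to 1022, 1024 and 1008 with E444Q PRMT5 and to 985, 1049 and 1094 with WT PRMT5, log2 fold changes of 0.44 ± 0.066 (adjusted p = 5.77e-05) and 0.48 ± 0.066 (adjusted p = 2.72e-05). Prdx4 (chrX:155323918-155340754), the member of the endoplasmic reticulum, rose further, from 59.7, 60.7 and 57.2 CPM to 105, 104 and 107 with E444Q PRMT5 and 104, 103 and 102 with WT PRMT5. These are increases of 1.78-fold (adjusted p = 2.15e-09) and 1.74-fold (adjusted p = 2.82e-09). Prdx5, found in mitochondria and peroxisomes among other places, was also higher, at 121, 123 and 99.8 CPM with 4OHT alone and 144 to 157 in the other 6 libraries (adjusted p = 0.000507 and 0.000259). Prdx5 shares up to 360 bases with the overlapping gene Trmt112, which was also higher, with means of 29.6, 41.7 and 41.0 CPM (log2 fold changes 0.50 and 0.47). The counts of Prdx5 and Trmt112 may therefore not be fully separated. Of the 3 that were lower, Prdx6 (chr1:161240112-161251219), the 1-cysteine member that reduces phospholipid hydroperoxides, moved most. It stood at 241, 234 and 246 CPM with 4OHT alone, 109, 108 and 109.8 with E444Q PRMT5 and 92.1, 91.5 and 94.2 with WT PRMT5, log2 fold changes of −1.14 ± 0.043 (adjusted p = 7.56e-11) and −1.38 ± 0.044 (adjusted p = 1.05e-11). The 3 groups did not overlap. Prdx2 (chr8:84969587-84974834), a second cytosolic member, stood at 265, 276 and 266, then 154, 148 and 149, then 133, 141 and 138 CPM, with log2 fold changes of −0.84 ± 0.045 (adjusted p = 2.04e-09) and −0.97 ± 0.045 (adjusted p = 4e-10). Prdx2 shares exon sequence with the neighbours Junb and Rnaseh2a, and Junb was also lower (log2 fold changes −1.38 and −1.76), so the counts of the 2 genes may not be fully separated. Prdx3, the mitochondrial member, fell from 51.3, 46.7 and 46.9 CPM to between 34.3 and 36.4 in the other libraries (adjusted p = 1.01e-05 and 1.34e-05).

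All 5 listed glutathione peroxidases were lower in each comparison. Together they summed to 541, 507 and 488 CPM with 4OHT alone, 282 to 292 with E444Q PRMT5 and 246 to 265 with WT PRMT5. Gpx2, outside the list, stood at 1.49, 2.11 and 1.71 CPM on average and passed in neither comparison (edgeR adjusted p = 0.115 and 0.555). Gpx8 (chr13:113042753-113046410), a membrane protein of the endoplasmic reticulum, stood at 54.2, 50.6 and 44.8 CPM with 4OHT alone, 20.4, 22 and 19.8 with E444Q PRMT5 and 14.9, 13.7 and 14.9 with WT PRMT5. It was 2.40-fold lower (adjusted p = 8.25e-09) and 3.44-fold lower (adjusted p = 2.95e-10). Gpx7, its relative in the same compartment, stood at 16.1, 15.8 and 15.9 CPM with 4OHT alone, at 6.01, 6.25 and 5.71 with E444Q PRMT5 and at 4.16, 4.85 and 5.70 with WT PRMT5 (adjusted p = 1.05e-07 and 1.81e-08). Each of these 2 genes separated 4OHT alone from both other groups by more than 2-fold. Gpx1, the general cytosolic and mitochondrial enzyme, ran from 153 to 187 CPM with 4OHT alone and from 79.6 to 87.1 in the other 6 libraries, 2.02-fold (adjusted p = 1.59e-08) and 2.07-fold lower (adjusted p = 9.76e-09). Gpx3 (chr11:54902453-54910377), the secreted enzyme, stood at 149.6, 142 and 159.6 CPM, then 95.1, 95.9 and 99.3 with E444Q PRMT5 and 72.6, 75.1 and 76.1 with WT PRMT5. Its log2 fold changes were −0.64 ± 0.051 (adjusted p = 1.23e-07) and −1.01 ± 0.052 (adjusted p = 1.07e-09). Gpx4, which reduces lipid hydroperoxides in membranes and has a structural part in sperm, stood at 134, 127 and 115 CPM with 4OHT alone and between 74.3 and 85.0 in the other 6 libraries (adjusted p = 1.92e-06 and 3.71e-06). A processed copy, Gpx4-ps2, shares 762 bases with it and was counted at 20.8, 12.6 and 15.1 CPM on average.

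The superoxide dismutases, which turn superoxide into hydrogen peroxide, went 3 ways. Sod3 (chr5:52363791-52371418), the extracellular enzyme, stood at 40.4, 41.3 and 40.4 CPM with 4OHT alone, 17.7, 17.4 and 17.8 with E444Q PRMT5 and 11.8, 12.5 and 14.5 with WT PRMT5. It was 2.31-fold lower (adjusted p = 7.89e-09) and 3.14-fold lower (adjusted p = 3.64e-10). Sod1 (chr16:90220754-90226329), the cytosolic enzyme, stood at 214, 194 and 147 CPM with 4OHT alone and between 247 and 257 in the other libraries, log2 fold changes of 0.44 ± 0.097 in each comparison (adjusted p = 0.0015 and 0.00131). The third library with 4OHT alone was the farthest from the constructs, and without it the change with WT PRMT5 was 0.29 (adjusted p = 4.14e-05). Sod2, the mitochondrial enzyme, did not pass in either comparison (log2 fold changes −0.07 and −0.01, adjusted p = 0.273 and 0.847). Its exons align over up to 3110 bases with Rps6ka2, at a best identity of 98.3%. Catalase (Cat, chr2:103453849-103485160), which breaks down hydrogen peroxide in peroxisomes, rose from 113, 106 and 118 CPM to 127, 127 and 128 with E444Q PRMT5 and 139, 139 and 145 with WT PRMT5. The log2 fold changes were 0.18 ± 0.048 (adjusted p = 0.00592) and 0.33 ± 0.049 (adjusted p = 4.81e-05).

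Of the 3 glutathione transferases, which attach glutathione to electrophiles, Gstp1 (chr19:4035407-4037985) carried the change. It stood at 164, 198 and 172 CPM with 4OHT alone, 59.0, 62.9 and 62.9 with E444Q PRMT5 and 59.4, 63.4 and 53.7 with WT PRMT5, 2.89-fold (adjusted p = 9.48e-10) and 3.03-fold lower (adjusted p = 5.29e-10). Reads shared with its close copies Gstp2 and Gstp-ps could not be separated. Gstm1 was slightly higher, at 24.1 to 27.5 CPM with 4OHT alone and 28.8 to 30.8 in the other libraries, log2 fold changes of 0.21 ± 0.064 in each comparison (adjusted p = 0.0114 and 0.0127, and 0.0502 for WT PRMT5 without the second 4OHT library). Gsta4, which acts on 4-hydroxynonenal from lipid peroxidation, stood at 34.1, 32.5 and 28.1 CPM, then 29.3, 29.9 and 28.9, then 29.3, 27.6 and 26.5. It did not pass with E444Q PRMT5 (adjusted p = 0.254). With WT PRMT5 its log2 fold change of −0.18 ± 0.074 passed (adjusted p = 0.0494), but the groups overlapped and the call was lost on leaving out any 1 of 5 of the 6 libraries and with library totals alone.

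**Figure D2:**
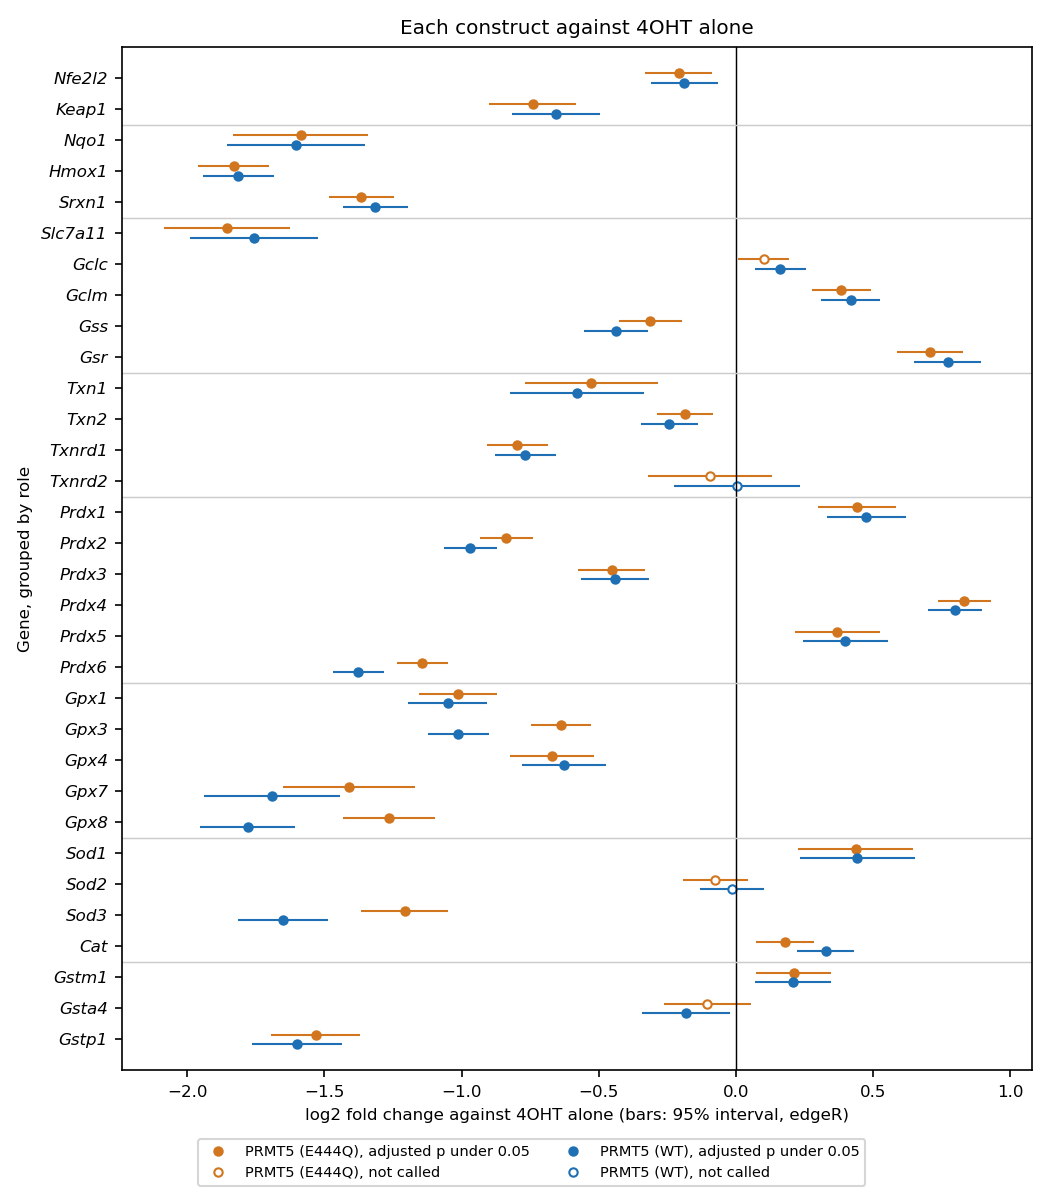
Log2 fold change of 32 of the 33 genes against 4OHT alone, with its 95% interval from edgeR, for E444Q PRMT5 in orange and WT PRMT5 in blue; filled points have an adjusted p under 0.05. Points run from −1.86 for Slc7a11 to 0.83 for Prdx4, both with E444Q PRMT5, and the 2 series share the libraries of 4OHT alone.

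The constructs were also compared directly. They differ in the catalytic mutation and in their RNA level, with Prmt5 at 146 CPM and at 1076 CPM (log2 fold change −2.88), and the 2 cannot be told apart. Peroxiredoxin 6, the secreted and endoplasmic reticulum glutathione peroxidases Gpx3 and Gpx8 and extracellular superoxide dismutase were higher with E444Q PRMT5 than with WT PRMT5, and no other gene of the 33 passed the test. Of all genes tested 3.17% passed in this comparison, 2.12% higher and 1.06% lower, and of the 33 genes 4 were higher (12.1%) and 0 lower by edgeR's quasi-likelihood test. DESeq2 called 1 lower, catalase, and 9 of the 33 genes had an unadjusted p under 0.05 in edgeR, in either direction, against 12.4% of all genes. The 4 that passed were also lower with either construct than with 4OHT alone. Gpx8 had the largest difference, with means of 20.7 ± 1.16 and 14.5 ± 0.715 CPM, a log2 fold change of 0.52 ± 0.078 (95% interval 0.35 to 0.68, adjusted p = 0.00175). Sod3 stood at 17.6 ± 0.237 and 12.9 ± 1.36 CPM, with a log2 fold change of 0.44 ± 0.074 (0.28 to 0.60, adjusted p = 0.00377). For Gpx3 the means were 96.8 ± 2.22 and 74.6 ± 1.80 CPM and the log2 fold change was 0.38 ± 0.051 (0.27 to 0.49, adjusted p = 0.000756). The smallest difference was that of Prdx6, at 109 ± 1.01 and 92.6 ± 1.40 CPM (0.23 ± 0.043, 0.14 to 0.33, adjusted p = 0.00703), and this call was lost without the third E444Q PRMT5 library (adjusted p = 0.0558). In every one of these 4 genes the lowest E444Q PRMT5 library stood above the highest WT PRMT5 library.

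The fibroblast markers moved in the same direction in this comparison. Of the 12 markers 11 were higher with E444Q PRMT5, with log2 fold changes of 0.31 to 0.45 over the 12 and a median of 0.37, and all 12 had groups that did not overlap. The exception was Col5a1 (adjusted p = 0.0643). Macrophage markers moved the other way, 10 of 16 lower (median −0.85). The 14 germ cell markers had a median of −0.07. None of them passed at the adjusted p, while 6 had an unadjusted p under 0.05. The part of fibroblast or macrophage RNA in the differences of Prdx6, Gpx3, Gpx8 and Sod3 was not tested.

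**Figure D3:**
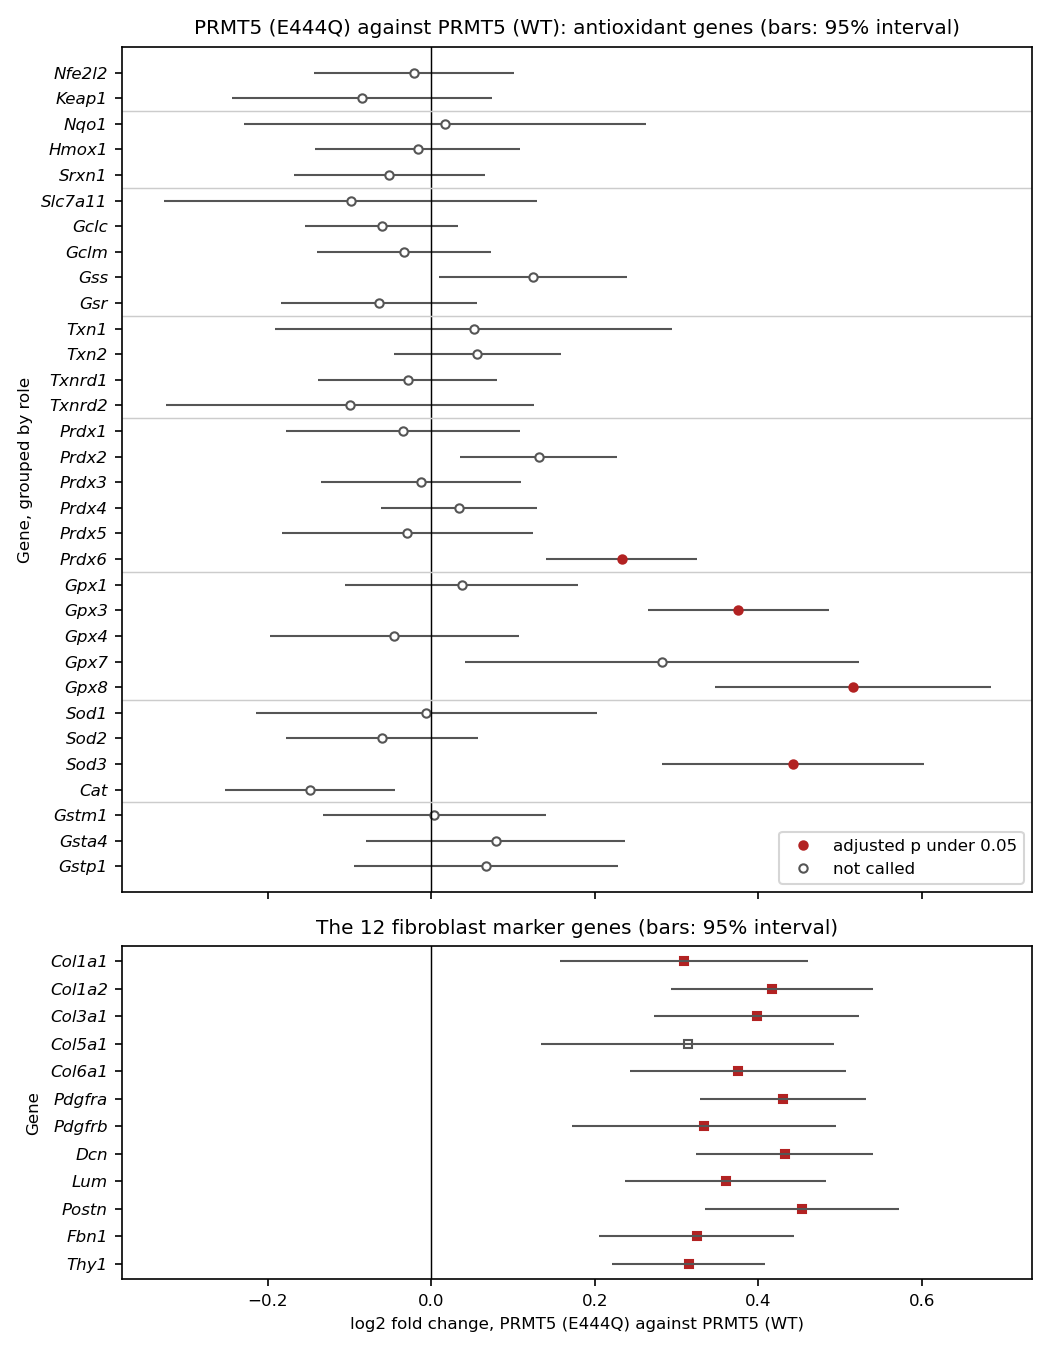
Log2 fold change of E444Q PRMT5 against WT PRMT5 for 32 of the antioxidant genes (upper panel) and for the 12 fibroblast markers (lower panel), each with its 95% interval from edgeR; filled symbols have an adjusted p under 0.05. Gpx8, Sod3, Gpx3 and Prdx6 lie right of 0 in the upper panel, and the fibroblast markers lie between 0.31 and 0.45 in the lower one.

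For the other 29 genes the difference between the constructs did not pass the test, and the intervals show how large it could still be. The log2 fold change was −0.02 for Hmox1 (95% interval −0.14 to 0.11), 0.02 for Nqo1 (−0.23 to 0.26) and −0.05 for Srxn1 (−0.17 to 0.066), the NRF2 targets that stood furthest from 4OHT alone among the inducible enzymes. The interval of Nqo1, the gene with the lowest level of these 3, was the widest. Slc7a11, at about 5 CPM in both groups, had an interval of −0.33 to 0.13. Gpx7 was at 5.99 ± 0.270 and 4.91 ± 0.773 CPM, a log2 fold change of 0.28 ± 0.112 with an interval of 0.041 to 0.52 (adjusted p = 0.29). Prdx2 differed by 0.13 ± 0.045 (adjusted p = 0.181), and its groups did not overlap. Catalase pointed down, by −0.15 ± 0.048 (interval −0.25 to −0.044, adjusted p = 0.157). Groups did not overlap for 14 of the 33 genes, 8 above and 6 below, where 25.9% of all genes did not overlap. The median over the 33 genes was −0.013, beside 0.0080 over all genes.

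Within families the shares of the summed level per kilobase of annotated exon shifted. The length is that of all annotated exons of a gene together, from 1478 bases for Prdx3 to 4804 for Prdx6 among the peroxiredoxins. It can exceed the length of the transcripts present, so the shares depend on the annotation and are not shares of RNA molecules. Prdx1 made up 49.3 ± 2.09% of the peroxiredoxin sum with 4OHT alone, 60.8 ± 0.539% with E444Q PRMT5 and 62.2 ± 1.34% with WT PRMT5. Prdx2 went from 17.7 to 8.98 and 8.19% and Prdx6 from 10.1 to 4.12 and 3.50%, while Prdx4 went from 5.65 to 9.11 and 8.89%. The summed level of the 6 genes was 1386 to 1569, 1554 to 1582 and 1501 to 1609 CPM, ranges that overlap between all groups. This sum was not divided by exon length, unlike the shares, so it cannot be set against them. Gstp1 made up 72.9 ± 2.77% of the 3 listed transferases with 4OHT alone and 47.8 ± 1.12% and 47.3 ± 1.71% with the constructs. Sod3 went from 9.90 to 3.74 and 2.65% of the dismutase and catalase sum. Among the listed glutathione peroxidases Gpx8 went from 14.2 to 10.9 and 8.51% and Gpx4 from 21.7 to 25.0 and 28.8%. All 33 genes together held 4401 to 4598 CPM with 4OHT alone, 3828 to 3865 with E444Q PRMT5 and 3791 to 3907 with WT PRMT5.

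**Figure D4:**
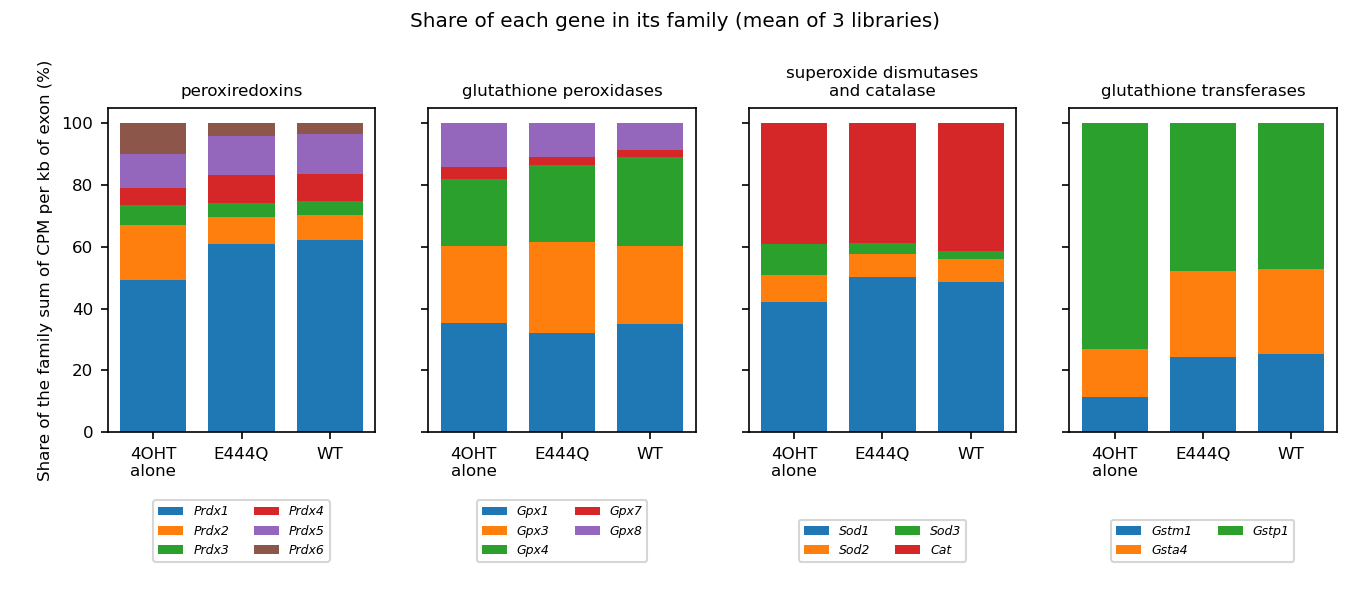
Share of each gene (percent, mean of 3 libraries) in the summed level per kilobase of annotated exon of the listed genes of its family. Each group is shown for 4 families, and genes outside the list, such as Gsto1, are left out. Prdx1 grows from 49.3% to 60.8% and 62.2% of the peroxiredoxins, and Gstp1 shrinks from 72.9% to 47.8% and 47.3% of the 3 listed transferases.

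Other genes of the same pathways were taken from 7 lists. Their counts are to be read against the background given above, 26.5% of all genes lower and 29.5% higher with E444Q PRMT5 and 27.9% and 29.9% with WT PRMT5. Of 16 further NRF2 targets 9 were lower (56.3%) and 2 higher (12.5%) with E444Q PRMT5 (median log2 fold change −0.48), and 8 lower and 2 higher with WT PRMT5 (−0.35). Cbr3, a carbonyl reductase, went from 19.4 ± 0.612 CPM to 6.91 ± 0.358 and 6.49 ± 1.14 (log2 fold changes −1.49 and −1.58, adjusted p = 9.77e-08 and 5.44e-08). Ugdh, which makes UDP-glucuronate for conjugation, went from 122 ± 1.84 to 51.6 ± 0.721 and 43.9 ± 1.40 CPM (−1.24 and −1.48) and was higher with E444Q PRMT5 than with WT PRMT5 (0.23, adjusted p = 0.0121). The 2 that were higher by the naming rule were the transporter gene Abcc5, from 75.1 to 109 and 117 CPM, and the pseudokinase gene Trib3, from 24.4 to 30.5 and 29.1 CPM.

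Of 11 partners and regulators of NRF2, 4 were lower (36.4%) and 2 higher (18.2%) with E444Q PRMT5, and 3 (27.3%) and 2 (18.2%) with WT PRMT5, so the share that was lower with WT PRMT5 was at the background. The small MAF genes Maff and Mafg were lower, from 33.7 to 22.8 and 18.5 CPM and from 142 to 112 and 116 CPM. Cul3, the scaffold of the ligase that KEAP1 serves, was higher, from 181 to 227 and 233 CPM (log2 fold changes 0.33 and 0.36). Btrc, which encodes another ligase adaptor that targets NRF2, rose from 47.8 to 59.5 and 60.9 CPM.

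The list for NADPH supply and the pentose phosphate pathway held 10 rows, of which 6 were lower and 3 higher with E444Q PRMT5 and 5 and 3 with WT PRMT5. Pgls, 6-phosphogluconolactonase, went from 51.4 to 29.3 and 27.9 CPM (log2 fold changes −0.81 and −0.88). Rpia, ribose-5-phosphate isomerase, rose from 44.6 ± 6.23 to 93.9 ± 2.73 and 94.6 ± 7.34 CPM and Mthfd2, a mitochondrial folate enzyme, from 48.3 to 86.2 and 87.3 CPM. The mitochondrial transhydrogenase symbol Nnt stands on 2 identifiers, of which ENSMUSG00000025453 went from 40.0 ± 12.6 to 16.1 ± 2.03 and 10.2 ± 4.01 CPM. The other, ENSMUSG00000116207, stood at 19.7 ± 6.76, 8.34 ± 0.774 and 13.2 ± 4.23 CPM, did not pass with WT PRMT5 (adjusted p = 0.0566), and between the constructs pointed the other way (log2 fold change −0.67, beside 0.67), so how reads were split between the 2 rows is uncertain. Tkt, transketolase, named after its values were seen, was the 1 gene of the list that was lower with E444Q PRMT5 than with WT PRMT5, at 92.7 against 111 CPM (log2 fold change −0.25, adjusted p = 0.0286).

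Iron and haem genes, 8 in all, were mixed, with 3 lower and 4 higher in each comparison. Ftl1, ferritin light chain, went from 2227 ± 147 CPM to 1388 ± 34.2 and 1419 ± 55.2 (log2 fold changes −0.68 and −0.65), beside the lower Hmox1. The transferrin receptor gene Tfrc went the other way, from 149 to 271 and 288 CPM (0.87 and 0.95). The 2 biliverdin reductases differed in direction, with Blvra at 11.7, 17.7 and 20.5 CPM and Blvrb at 17.6, 11.6 and 11.1.

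Of 27 other genes for glutathione transferases and glutathione turnover 25 passed the filter, and 12 were lower and 6 higher with E444Q PRMT5, and 10 and 5 with WT PRMT5. Gsto1, an omega transferase, had the largest change with E444Q PRMT5 of the genes named from the pathway lists. It went from 319 ± 23.4 to 63.3 ± 2.09 and 54.9 ± 3.54 CPM (log2 fold changes −2.33 and −2.54, adjusted p = 5e-12 and 1.78e-12). Gstp2, whose reads may be shared with Gstp1, went from 4.34 to 1.14 and 0.721 CPM (−1.92 and −2.58). Gstm7 and Ggct were higher, from 2.51 to 5.68 and 5.18 CPM and from 9.87 to 20.5 and 18.9 CPM. Between the constructs Gstm2 was higher with E444Q PRMT5 (9.00 against 5.74 CPM, adjusted p = 0.00531) and Mgst1 lower (27.9 against 42.8 CPM, adjusted p = 0.000165), both named after their values were seen.

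Of 20 other thiol redox genes 18 passed the filter, 11 lower and 5 higher in each comparison. Msrb3, a methionine sulfoxide reductase, went from 83.3 ± 3.06 to 32.5 ± 1.72 and 24.8 ± 1.66 CPM and was higher with E444Q PRMT5 than with WT PRMT5 (log2 fold change 0.39, adjusted p = 0.00301). The sestrins split, Sesn2 falling from 133 to 60.1 and 57.5 CPM and Sesn1 rising from 23.7 to 42.3 and 41.9. Txnrd3, the thioredoxin-glutathione reductase known from testis, rose from 33.4 ± 1.39 to 72.9 ± 0.279 and 74.8 ± 3.08 CPM (1.13 and 1.16), the opposite of Txnrd1. Glrx, glutaredoxin, named after its values were seen, was lower with E444Q PRMT5 than with WT PRMT5, at 47.4 against 67.6 CPM (adjusted p = 7.76e-05).

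The glutathione peroxidases Gpx1, Gpx3 and Gpx4 and the thioredoxin reductases carry selenocysteine. Of 9 genes for selenoprotein synthesis 3 were lower and 1 higher with E444Q PRMT5, and 3 and 3 with WT PRMT5. Secisbp2l went from 154 to 82 and 75.9 CPM and Scly, selenocysteine lyase, from 6.35 to 3.60 and 2.69 CPM. Sepsecs, which makes selenocysteine on its transfer RNA, rose from 27.0 to 34.6 and 32.4 CPM. Secisbp2 stood at 39.7, 43.2 and 45.6 CPM and passed only with WT PRMT5 (adjusted p = 0.043).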

How the data were processed

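RNA was measured by paired-end RNA-seq in 9 libraries, grouped by the treatment label. The counts per gene, deposited by the authors as whole numbers, were made by trimming with BBmap and Trimmomatic 0.39, aligning to GRCm38 with HISAT2 2.2.1 and quantifying with StringTie 2.2.1. Strand, multiple alignments and the conversion to whole numbers are not stated, and values of 4 counts were 1.35 to 1.84 times as frequent as their neighbours, so 1 read pair may be worth about 4 counts and the totals may overstate the depth. Genes were filtered with filterByExpr (minimum count 10) and tested in edgeR 4.0.16 (R 4.3.3) on all 9 libraries, with TMM factors, group as the only term and Benjamini-Hochberg adjustment over 22452 genes. SEs and 95% intervals cover the spread between libraries. The code was tested on simulated counts. Exon lengths (all annotated exons of a gene together) and positions came from GENCODE vM21. Transcripts were compared with BLAST 2.17.0 (at least 150 bases at 95% identity), and 15 of the 33 genes matched another gene.

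Values of 1 of the 33 genes are not reported here, although the counts include it. The genes and lists were chosen with earlier results of these data known. From each pathway list up to 2 genes higher and 2 lower with WT PRMT5 against 4OHT alone were named, those with the largest called changes, a mean of at least 1 CPM and groups that did not overlap. The deviations of libraries with the same number correlated between −0.017 and 0.052, so they shared little deviation. This does not show whether libraries with the same number were prepared together. Alternatives were DESeq2 1.42.0, other scalings and filters, counts divided by 4, a replicate block, the compared libraries alone and leaving out each library.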

Additional observations from a re-analysis of the deposited data

How the results depend on the processing

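The counts of the 33 genes called against 4OHT alone stayed within 1.5 times under every alternative run. Leaving out 1 library gave 8 to 9 higher and 20 to 23 lower with E444Q PRMT5, 8 to 9 higher and 19 to 21 lower with WT PRMT5, and 3 to 4 higher between the constructs. Between the constructs, the count of lower genes went from 0 to 1 with DESeq2 (catalase) and to 2 with only the 6 libraries compared (catalase among them), a fit that also called Prdx2 higher. Over all genes that comparison called 712, against 1140 with DESeq2, 1565 with the 6 libraries and 400 to 487 without 1 library. The replicate block used numbers that are not known to pair the samples. It left the counts at 8 higher and 21 lower, 9 and 21, and 4 and 0, and called 674 genes over all.

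Scaling by library totals alone moved the median of all genes by 0.112 with E444Q PRMT5, by 0.0883 with WT PRMT5 and by 0.0241 between the constructs. Among the calls it lost were those of Nfe2l2 in both comparisons with 4OHT alone, of Txn2 with E444Q PRMT5 and of Gsta4 with WT PRMT5, and Gclc was called higher with E444Q PRMT5. With no filter these calls changed too except that of Nfe2l2 with WT PRMT5, and the fit on 6 libraries lost Gstm1 and Gsta4 with WT PRMT5. The 4 calls between the constructs ranged from 0.36 to 0.41 for Gpx3, 0.47 to 0.55 for Gpx8, 0.38 to 0.53 for Sod3 and 0.22 to 0.27 for Prdx6 over 13 alternatives, and the Prdx6 call alone was lost, once.

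Reversals of sign were of small log2 fold changes that had not been called. Library totals gave 0.0188 for Txnrd2, 0.0371 for Sod2 and 0.00714 for Gsta4 with E444Q PRMT5, 0.0732 for Sod2 with WT PRMT5, and 0.00298 for Nfe2l2, 0.00713 for Hmox1, 0.0115 for Prdx3 and 0.0178 for Sod1 between the constructs. With no filter, Sod2 was at 0.00843 with WT PRMT5, and between the constructs Nfe2l2 was at 0.0176, Hmox1 0.0213, Gclm 0.00458, Txnrd1 0.00972, Prdx1 0.00341, Prdx3 0.0264, Prdx5 0.00965 and Sod1 0.0331. Txnrd2 with WT PRMT5 was at −0.0149 with DESeq2 size factors, −0.0322 with counts divided by 4, −0.015 with DESeq2 and −0.0133 with the 6 libraries, and Gstm1 between the constructs at −0.00726 with the size factors and −0.00699 with DESeq2. Leaving out 1 library, Txnrd2 ran from −0.167 to 0.0404 with E444Q PRMT5 and from −0.0696 to 0.137 with WT PRMT5, where Sod2 ran from −0.0825 to 0.0154. Between the constructs Nqo1 ran from −0.0782 to 0.0882, Hmox1 from −0.0597 to 0.00977, Prdx1 from −0.0743 to 0.00307, Prdx3 from −0.0347 to 0.00874, Sod1 from −0.0192 to 0.00894 and Gstm1 from −0.0196 to 0.0263. The cause of these changes was not tested. Without the third library of 4OHT alone, Gclc was called higher and Sod2 and Gsta4 lower with E444Q PRMT5. With 3 libraries a group, the smallest log2 fold change called among the 33 genes was 0.16 (Gclc with WT PRMT5).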
